A study of Mus musculus with 12 samples.

Results

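Genes of the ubiquitin conjugating, ligating and removing machinery were compared between fluid shear and static culture in mouse osteoblast-like cells. A probe was taken as a member where the platform annotation gives it 1 gene symbol and that symbol starts with Ube1, Ube2, Ube3, Cul or Lrsam1, or is a numbered Trim, Rnf, Fbxo, Fbxw, Fbxl, Usp, March, Otub or Otud name. The rule reads names only, but it was drawn up with earlier results of these data known, and Lrsam1 is in it as a gene by name and not through a family. It took 410 of the 28704 probes on the array, for 204 of the 10225 genes named there, and no Ube1 or March symbol was among them. That concerns symbols only, since such a gene listed under another name would not be taken. A gene was tested through 1 probe where at least 4 of the 6 samples of each group had a value, which left 189 member genes. Of 15601 features tested over the whole array, 8926 were named genes and the others were probes with no single symbol. A name is not a proven activity: Usp6nl, taken by its symbol, encodes a Rab GTPase-activating protein, and cullins and F-box proteins are ligase scaffolds and substrate receptors rather than enzymes by themselves.

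The 2 groups were 6 samples of MC3T3-E1 cells under shear and 6 control samples of the same cells kept static in the same apparatus. MC3T3-E1 is a clone, derived from mouse skull bone, whose cells resemble osteoblasts. In the shear group, confluent monolayers on glass met pulsatile flow averaging 5 dyn/cm2 at 1 Hz for 5 h. Both groups had been grown in medium with 5% serum, and the medium of the apparatus, which the controls shared, held 1% serum. Nothing in the labels says whether the 6 samples of a group were 6 cultures, so the spread that the p-values rest on may be a technical one. Labelled cDNA was hybridised to spotted 2-colour arrays that each carried a Cy5 and a Cy3 sample of the same condition, so each group lies on 3 arrays of its own.

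Each value is a log2 fluorescence relative to the median of the spots in the same printed block, so 0 is the block middle. A change is the shear minus control difference from a fit that also holds dye and array. Where values are missing, it can differ from the difference of the group means. Between 18434 and 23790 features had a value in a sample. Among osteoblast markers, 7 of the 14 listed had a probe: Sparc, a bone matrix glycoprotein, was at 5.24 or more in shear samples and at 4.78 or more in controls, and Col1a2, a collagen I chain, at 2.79 or more and 3.01 or more. Col1a1, the other collagen I chain, ran from -0.14 to 2.83 in shear samples and from -0.04 to 2.62 in controls. Alpl, the bone alkaline phosphatase, ran from -1.89 to -0.23 in shear samples and from -1.78 to 0.55 in controls, and the transcription factor Msx2 from -2.65 to -1.62 and from -2.12 to -1.16. Runx2, Sp7, Bglap and Ibsp were not measured through such a probe, and Pth1r had a value in 1 shear sample only. Of the 6 osteoblast markers tested, 1 passed the test: Dlx5, an osteoblast transcription factor, fell by 0.97 on the log2 scale (adjusted p = 0.0492, limma), a call lost with each array averaged (adjusted p = 0.153, limma). The summed linear ratio of the osteoblast markers ranged from 50.4 to 138 in shear samples and from 51.3 to 136 in control samples. Of markers of other cells, none passed among 5 macrophage or osteoclast, 6 endothelial, 4 adipocyte, 4 chondrocyte and 4 muscle genes tested. Some of them lay above Alpl and Msx2 in both groups. The muscle gene Tnnt1 was at 1.77 or more in measured shear samples and 3.19 or more in controls. The macrophage gene Tyrobp was at 1.32 or more and 0.97 or more. Others were low, such as the muscle gene Mylpf, at most -1.72 and -2.03. The summed ratio of muscle genes reached 24.8 in shear samples and 21.3 in controls. Single marker levels therefore do not separate the cell types. The part of Dlx5 or of cell state in the results that follow was not tested.

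Ubiquitin is passed along a relay. An activating enzyme (E1) charges a conjugating enzyme (E2), and a ligase (E3) brings the charged E2 to its substrate. Ligases of the HECT kind, such as the Ube3 proteins, take over the ubiquitin before handing it on, whereas RING ligases, among them most Trim and Rnf proteins, let the E2 transfer it directly. Cullin-RING ligases are assembled from a cullin, a RING protein and exchangeable receptors such as F-box proteins, and deubiquitinating enzymes of the Usp and Otu families take ubiquitin off again. In bone-forming cells the pathway is known for setting the turnover of Smad proteins and of Runx2, among others through Smurf1.

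In shear-stressed cells 5 member genes passed the test, all with a Trim, Rnf or Lrsam1 name. Trim16, Rnf4 and Rnf149 were higher and Lrsam1 and Trim47 lower, and Trim47 alone also passed with each array averaged. No E2, Ube3 protein, cullin, F-box protein, Usp or Otu gene passed the test. The 5 genes are 2.65% of the 189 tested, against 1.49% of all 15601 features (232 features, 200 higher and 32 lower; limma, Benjamini-Hochberg adjusted p below 0.05). In the higher direction the share was 1.59% of members, against 1.28% of all features. In the lower direction 2 of 189 members passed, or 1.06%, against 0.205% of all features. These were Lrsam1, which the rule takes by name, and Trim47. The rule was drawn up with earlier results known, so these shares cannot show an excess of calls among members. The members as a whole sat where the array sat: their median change was 0.09 (quartiles -0.15 and 0.32), against 0.11 for all features (quartiles -0.16 and 0.38), and 63.0% of them lay above 0, against 61.0% of all features. This lean depended on the scaling: after cyclic loess 85 of 189 members lay above 0 (median -0.03), against 48.6% of all features (median -0.01), and after centring on features measured in all 12 samples 88 of 189 did (median -0.04), against 48.3% (median -0.02). An unadjusted p under 0.05 was reached by 12 higher and 7 lower members, together 10.1%, against 10.4% higher, 3.39% lower and 13.8% in all over the array. The shear values lay wholly above the control values for 12 members (6.35%, against 5.76% of all features) and wholly below them for 4 (2.12%, against 1.6%), together 8.47%, against 7.36%.

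**Figure D1:**
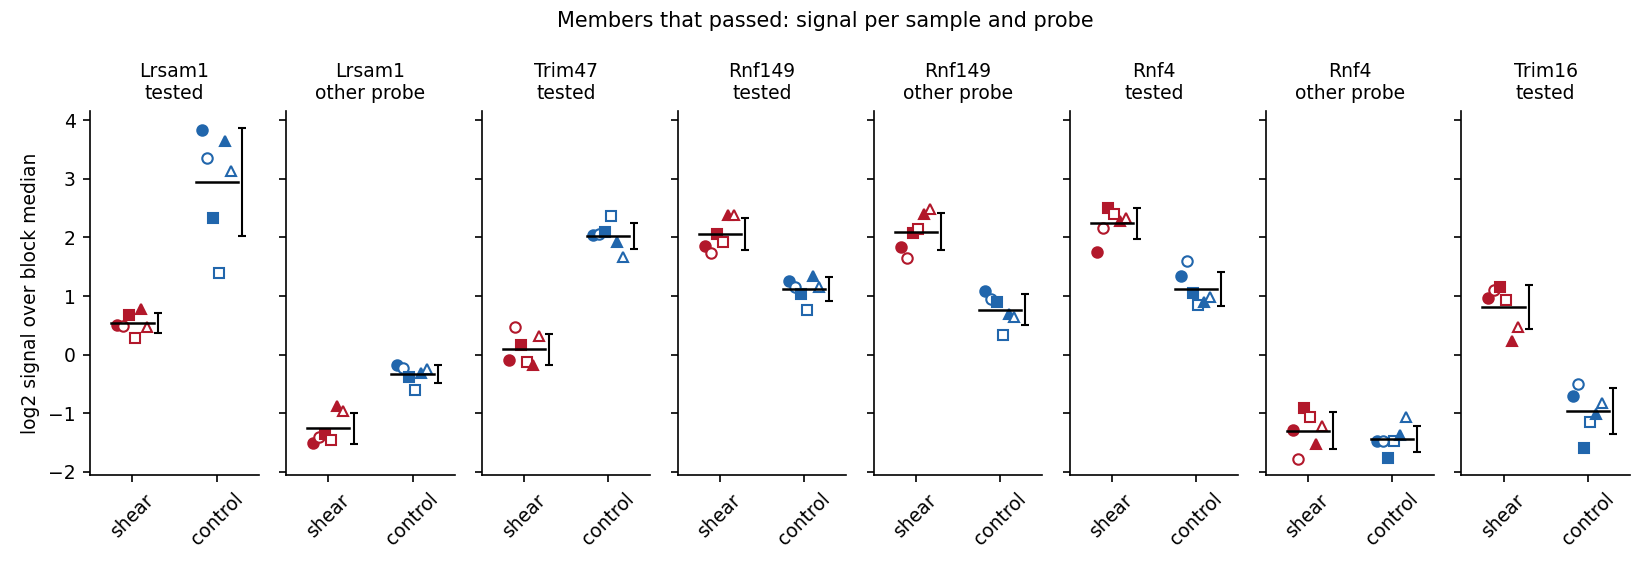
Log2 signal over the block median in all 12 samples for each probe of the 5 member genes that passed the test, shear left (red) and control right (blue); marker shapes stand for arrays, filled markers for Cy5 and open ones for Cy3, long lines for means and brackets for ± 1 SD (n = 6). Shear values of the tested Lrsam1 probe lie between 0.29 and 0.78 and control values between 1.39 and 3.83, and of the 8 panels only the other Rnf4 probe has overlapping groups.

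Lrsam1 had the lowest change of all members. It encodes a RING ligase with leucine-rich repeats that in human cells ubiquitinates the endosomal sorting protein TSG101 and marks intracellular bacteria. Its values in the shear samples were 0.51, 0.49, 0.68, 0.29, 0.78 and 0.47, against 3.83, 3.35, 2.33, 1.39, 3.64 and 3.13 in the control samples. All shear samples were close together and below every control sample, and among the controls the samples of replicates 3 and 4 were the lowest. The mean was 0.54 ± 0.17 in shear cells and 2.95 ± 0.92 in control cells (SD, n = 6 each), a change of -2.41 ± 0.39 (SE) and a 5.31-fold lower signal (adjusted p = 0.00699, limma). The other Lrsam1 probe ran the same way at a smaller size: it lay between -1.51 and -0.88 in shear samples and between -0.60 and -0.18 in control samples, a change of -0.94 (adjusted p = 0.0493 with every probe as a feature, limma).

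Trim47, a RING ligase of the tripartite motif family first described in astrocytoma, also fell. Shear samples gave -0.09, 0.47, 0.16, -0.12, -0.18 and 0.31, against 2.04, 2.06, 2.09, 2.37, 1.92 and 1.67 in control samples. The 2 groups were far apart, with little spread inside either. Its mean was 0.09 ± 0.27 in shear cells and 2.03 ± 0.23 in control cells (SD, n = 6 each), a change of -1.93 ± 0.30 (SE) and a 3.82-fold lower signal (adjusted p = 0.00531, limma). A single probe represents Trim47, so no other probe bears on this value.

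Trim16 had the highest change of all members. It is a tripartite motif protein without a RING domain that in human cells takes part in the autophagy of damaged lysosomes. Shear samples gave 0.97, 1.11, 1.15, 0.93, 0.23 and 0.47, against -0.70, -0.50, -1.60, -1.15, -1.02 and -0.82 in control samples. Every shear sample lay above 0 and every control sample below it, and the samples of replicates 5 and 6 were the lowest of the shear group. The change was 1.77 ± 0.28 (SE), a 3.42-fold higher signal (adjusted p = 0.00673, limma), again from a single probe.

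Rnf4 and Rnf149 rose by smaller amounts. Rnf4 is a RING ligase that recognises SUMO chains and links sumoylation to ubiquitination. It gave 1.76, 2.16, 2.50, 2.40, 2.28 and 2.33 in shear samples, against 1.35, 1.59, 1.05, 0.84, 0.89 and 0.98 in control samples. The groups did not overlap, with the lowest shear and the highest control value on the arrays of replicates 1 and 2, and the change was 1.12 ± 0.26 (SE), or 2.18-fold (adjusted p = 0.0460, limma). The other Rnf4 probe showed a change of only 0.14 (adjusted p = 0.877 with every probe as a feature, limma). Rnf149, a membrane-anchored RING ligase with a protease-associated domain, gave 1.86, 1.74, 2.06, 1.93, 2.39 and 2.38 in shear samples, against 1.25, 1.16, 1.04, 0.76, 1.34 and 1.15 in control samples. The groups did not overlap, and the change was 0.95 ± 0.22 (SE), or 1.93-fold (adjusted p = 0.0466, limma). Both Rnf149 probes agreed in direction, the other at 1.33 (adjusted p = 0.0232 with every probe as a feature, limma).

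The standing of the 5 calls differed. Trim47 passed under all 30 alternative settings tried. With each array averaged to 1 value, 3 arrays against 3, 0.439% of 16386 features passed, 0.0427% in the lower direction. Trim47 was the 1 member of 190 that passed there (adjusted p = 0.0175, limma), while Trim16 had 0.0517, Lrsam1 0.0563, Rnf4 0.118 and Rnf149 0.165. Rnf4 did not pass in 21 of the 30 settings and Rnf149 in 23, among them quantile normalization and cyclic loess. Lrsam1 was also lost without shear replicates 3 and 4, where its change was -2.38 (adjusted p = 0.0586, limma).

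The promoters of the 2 genes that fell are shown because they are the members that moved together downward. Each window runs from 250 bases before to 50 bases after the annotated start, from RefSeq on GRCm38.p6, written 5′ to 3′ on the gene's strand. The Lrsam1 window is chr2:32961592-32961891 on the minus strand, and the Trim47 window is chr11:116110186-116110485, also on the minus strand. Capitals mark the GC box, GGGCGG on either strand.
Lrsam1: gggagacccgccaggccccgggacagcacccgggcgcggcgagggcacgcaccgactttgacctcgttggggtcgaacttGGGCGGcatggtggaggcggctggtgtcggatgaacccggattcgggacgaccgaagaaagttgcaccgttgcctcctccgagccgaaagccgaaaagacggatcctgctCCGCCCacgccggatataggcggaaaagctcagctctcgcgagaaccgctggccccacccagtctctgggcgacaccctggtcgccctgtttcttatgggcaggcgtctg
Trim47: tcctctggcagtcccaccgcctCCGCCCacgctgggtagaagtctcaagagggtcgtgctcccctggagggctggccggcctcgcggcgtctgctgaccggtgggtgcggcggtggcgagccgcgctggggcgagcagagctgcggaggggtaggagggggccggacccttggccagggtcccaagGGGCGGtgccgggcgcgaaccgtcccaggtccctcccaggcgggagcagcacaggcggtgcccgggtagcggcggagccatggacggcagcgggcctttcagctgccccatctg
Both windows hold 2 GC boxes, at -170 and -60 from the start in Lrsam1 and at -228 and -64 in Trim47, counted at the first base of each match. Their GC content was 66.3% and 74.3%.

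A window was listed for 158 member genes, 4 of the 5 called ones among them, Trim16 being the other. Other short motifs were searched on both strands. The AP-1 site TGANTCA was in 5.70% of member windows and 7.93% of all 27025 windows, the heat shock element GAANNTTC in 4.43% and 7.95%, and the E-box CACGTG in 6.96% and 7.24%. The antioxidant response core TGANNNNGC was in 41.8% and 41.4%, and the CRE TGACGTCA in 2.53% and 1.88%. None of these letters occurred in the windows of Lrsam1, Trim47, Rnf4 or Rnf149. The GC box was searched afterwards and was in 72.8% of member windows and 35.9% of all windows, beside a median GC content of 62.7% and 52.7%. Rnf149, which rose, also had 2 GC boxes, and Rnf4 had none, so the letters did not follow the direction of change in these 4 genes.

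**Figure D2:**
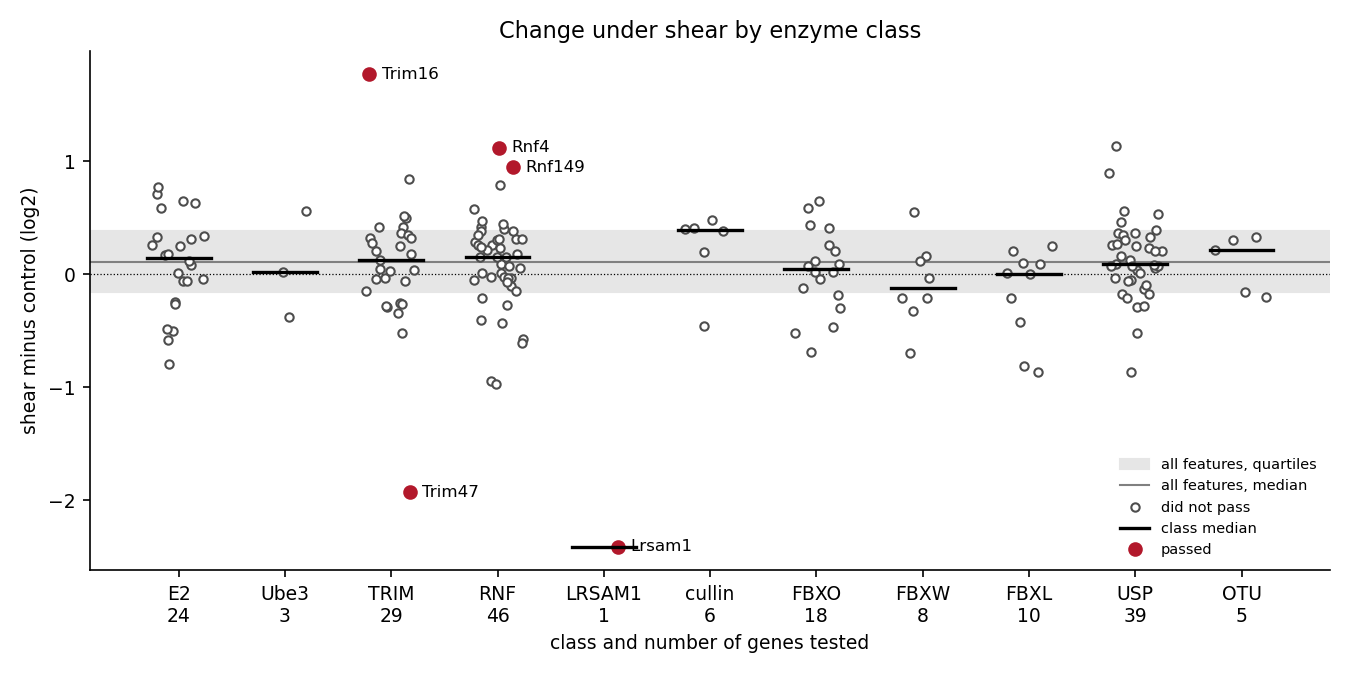
The change of every tested member gene, as log2 of shear minus control, by class; red points passed the test, short black lines are class medians, and the grey line and band are the median (0.11) and quartiles (-0.16 and 0.38) of all features. Class medians lie between -0.12 and 0.39 apart from Lrsam1, which is a class of 1 gene, and the red points are the highest or lowest of their classes, Rnf149 being next to Rnf4.

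None of the 24 conjugating enzymes tested passed the test in limma, and 4 higher and 1 lower had an unadjusted p under 0.05 (20.8%, against 13.8% of all features). Their changes ran from -0.79 (Ube2w) to 0.77 (Ube2g2), with a median of 0.15 that was 0.06 after quantile normalization and -0.03 after cyclic loess. Ube2g2, an E2 of endoplasmic reticulum quality control, ranged from 1.70 to 2.20 in shear samples (median 1.90) and from 0.83 to 1.39 in control samples (median 1.11). The groups did not overlap, and the change was 0.77 ± 0.22 (SE; adjusted p = 0.116, limma), with its 2 other probes at 1.10 and 0.60. Among the broadly acting Ube2d enzymes, which serve many RING ligases, Ube2d2a had a change of 0.63 (adjusted p = 0.190, limma) and Ube2d3 of 0.65 (adjusted p = 0.195, limma). All 4 probes of each gene lay above 0, the others at 0.88, 0.48 and 0.37 for Ube2d2a and at 0.31, 0.61 and 0.54 for Ube2d3. Ube2e1, of the neighbouring E2 family, had a change of 0.71 with overlapping groups. Ube2f, which conjugates Nedd8 rather than ubiquitin and had only 4 control values, lay wholly above its controls (0.59). Ube2h lay wholly below its controls (-0.50) by the tested probe, but its other probe gave 0.06 with overlapping groups. Neither gene passed the test.

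The HECT ligases of the Ube3 name were 3. Ube3a, the imprinted gene of Angelman syndrome in humans, ranged from 3.22 to 3.58 in shear samples and from 2.52 to 3.14 in control samples, a change of 0.56 ± 0.24 (SE; adjusted p = 0.313, limma). Its groups did not overlap, yet it did not pass the test. Ube3b changed by -0.38 and Ube3c by 0.02, both with overlapping groups.

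Of 29 tested Trim genes, Trim16 and Trim47 passed, 6.90% of the family, against 1.49% of all features, a share that rests on those genes alone. The rest of the family lay between -0.52 and 0.84. Trim3, a ligase studied mainly in neurons, had the next highest change, with -1.20 to -0.32 in shear samples and -2.12 to -0.70 in control samples (0.84 ± 0.40 SE, adjusted p = 0.375, limma). Trim13, anchored in the endoplasmic reticulum, had the next lowest, with 0.74 to 1.5 in shear samples and 1.40 to 1.75 in control samples (-0.52 ± 0.22 SE, adjusted p = 0.296, limma). Members that act in antiviral signalling were inside this range, with Trim25 at -0.34 and Trim21 at 0.04. So were the chromatin-bound Trim28 (0.42) and Trim24 (0.21). Other probes kept the sign for Trim28 (0.34) and Trim25 (-0.22 and -0.08). They did not for Trim24 (-0.25 and -0.23) or for Trim13 (0.02). The family median was 0.13, and 18 of the 29 genes were above 0.

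Of 46 tested Rnf genes, Rnf4 and Rnf149 passed (4.35%, against 1.49% of all features), a share that rests on those genes alone. Of the family 30 were above 0 with a median of 0.15, or -0.01 after cyclic loess. Rnf216, a RING-between-RING ligase, ranged from -0.12 to 0.70 in shear samples and from -0.84 to -0.29 in control samples. The groups did not overlap and the change was 0.79 ± 0.26 (SE; adjusted p = 0.160, limma). Rnf167, an endosomal and lysosomal ligase built like Rnf149, ran lower, at -0.13 to 0.99 in shear samples and 0.70 to 1.91 in control samples (-0.94 ± 0.32 SE, adjusted p = 0.182, limma). Its probes did not agree: the other 3 gave 0.15, -0.67 and -0.43. Rnf7, the RING partner of Cul5, had the lowest change of the family, -0.97, which rested on 1 array. Its control values were 5.26 and 3.75 in replicates 1 and 2 and 1.00 to 1.47 in the other 4, against 1.00 to 2.03 in shear samples, and without control replicates 1 and 2 the change was 0.08. The other Rnf7 probe gave 0.21. The histone H2A and H2B ligases Rnf2 (0.15), Rnf20 (-0.15), Rnf8 (0.31) and Rnf168 (0.29) did not pass the test, nor did Rnf31 (-0.07), the catalytic subunit of the linear ubiquitin assembly complex.

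Cullins had a class median of 0.39 over 6 genes, which was 0.22 after cyclic loess and 0.12 without control replicates 3 and 4. None passed the test in limma and none had an unadjusted p under 0.05. Cul3, which builds ligases with BTB proteins such as Keap1, ranged from 2.72 to 3.31 in shear samples and from 2.14 to 2.66 in control samples, without overlap. Its change was 0.48 ± 0.24 (SE; adjusted p = 0.410, limma), and its other 2 probes gave 0.48 and 0.82. Cul2, the scaffold of the Vhl ligase, had 0.40, Cul4b, which binds Ddb1, 0.41, Cul5 0.38 and Cul1, the scaffold of F-box ligases, 0.20. Cul7 alone lay below 0, at -0.46, with 0.79 to 1.53 in shear samples and 1.36 to 2.08 in control samples.

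F-box proteins, the substrate receptors of Cul1 ligases, had a median of 0.01 over 36 tested genes, 19 of them above 0, and none passed the test in limma (1 higher and 1 lower at an unadjusted p under 0.05). The median was -0.10 after cyclic loess (12 of 36 above 0), -0.12 after centring on features measured in all 12 samples (10 of 36) and -0.13 without control replicates 3 and 4 (15 of 36). By name it was 0.04 for 18 Fbxo, -0.12 for 8 Fbxw and 0.00 for 10 Fbxl genes. Fbxo27, a receptor for glycoproteins, ranged from 2.17 to 2.84 in shear samples and from 1.74 to 2.13 in control samples, without overlap (0.59 ± 0.23 SE, adjusted p = 0.247, limma). Fbxw11, known as beta-TrCP2 and a receptor for phosphorylated beta-catenin and IkB, ranged from 1.28 to 1.75 in shear samples and from 0.70 to 1.23 in control samples, also without overlap (0.55 ± 0.26 SE, adjusted p = 0.364, limma). Fbxl20 had the lowest change of the class, -0.86, with -2.79 to -1.76 in shear samples and -2.37 to -0.60 in control samples (adjusted p = 0.268, limma). Fbxo32, the atrogin-1 receptor of muscle atrophy, had -0.52, and Fbxo34 0.65, both with overlapping groups.

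Some F-box values followed arrays or probes. Fbxl5, the iron-sensing receptor of iron regulatory proteins, gave 1.58 and 2.11 in shear replicates 1 and 2 and 4.35 and 3.93 in shear replicates 5 and 6, on either side of its control range of 2.92 to 3.83. Its change of -0.42 was 0.16 without shear replicates 1 and 2. Fbxo11 had a change of 0.44 by the tested probe and -1.42 by the other, where control replicate 3 stood at 6.77 and the other control values at 1.39 to 1.76. Of the remaining genes with the smallest p in their class, Fbxw17 had -0.70, Fbxw22 -0.32, Fbxw5 -0.21, Fbxl7 0.25 and Fbxl17 -0.21. Fbxw22 had only 4 values in each group, all at -2.01 or lower. Its means were -2.94 in shear and -2.84 in control samples, so its fitted change rests on few low values.

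Among the genes named as deubiquitinating enzymes, none of 44 passed the test in limma, 39 with a Usp and 5 with an Otu name. The 39 include Usp6nl, which by the opening is no such enzyme. Of the 44, 2 higher and 1 lower had an unadjusted p under 0.05 (6.82%, against 13.8% of all features). Usp36, a nucleolar enzyme known to act on Myc and on ribosome assembly, had the smallest p of the class. It ranged from -0.47 to 0.42 in shear samples (median -0.04) and from -1.15 to -0.77 in control samples (median -0.94). The groups did not overlap, and the change was 0.90 ± 0.22 (SE; adjusted p = 0.0681, limma), from a single probe. Usp10, which acts on p53 and binds the stress granule protein G3BP, gave 5.34, 5.68, 5.69, 5.46, 5.65 and 5.79 in shear samples, against 3.66, 3.57, 5.42, 5.43, 4.26 and 4.43 in control samples. The control samples of replicates 3 and 4, on the array with the fewest measured features, stood inside the shear range, and the change was 1.14 ± 0.35 (SE; adjusted p = 0.139, limma). Without those 2 samples the change was 1.62 (adjusted p = 0.0188, limma), and the other Usp10 probe gave 0.25. The part of that array's depth in this value was not tested.

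Usp21, a histone H2A deubiquitinase, lay wholly below its controls: -1.23 to -0.14 in shear samples and -0.11 to 0.77 in control samples (-0.86 ± 0.33 SE, adjusted p = 0.247, limma). Its other 2 probes gave -0.43 and -0.20. Usp18, which removes the ubiquitin-like Isg15, had -0.52, Usp7, which acts on Mdm2 and p53, lay wholly above its controls at 0.27, and Usp19, anchored in the endoplasmic reticulum, had 0.53. In the Otu family, Otud4 had 0.22 by its tested probe, Otud6b 0.33, Otud5 0.30, Otub1 -0.16 and Otud1 -0.20. The other 2 Otud4 probes gave 1.33 (adjusted p = 0.0630) and 1.31 (adjusted p = 0.105, both with every probe as a feature, limma). In both, the shear samples lay above all control samples, at 0.01 to 1.06 against -1.23 to -0.68 in the first and -0.61 to 0.89 against -1.81 to -0.84 in the second, so the Otud4 value depends on the probe.

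**Figure D3:**
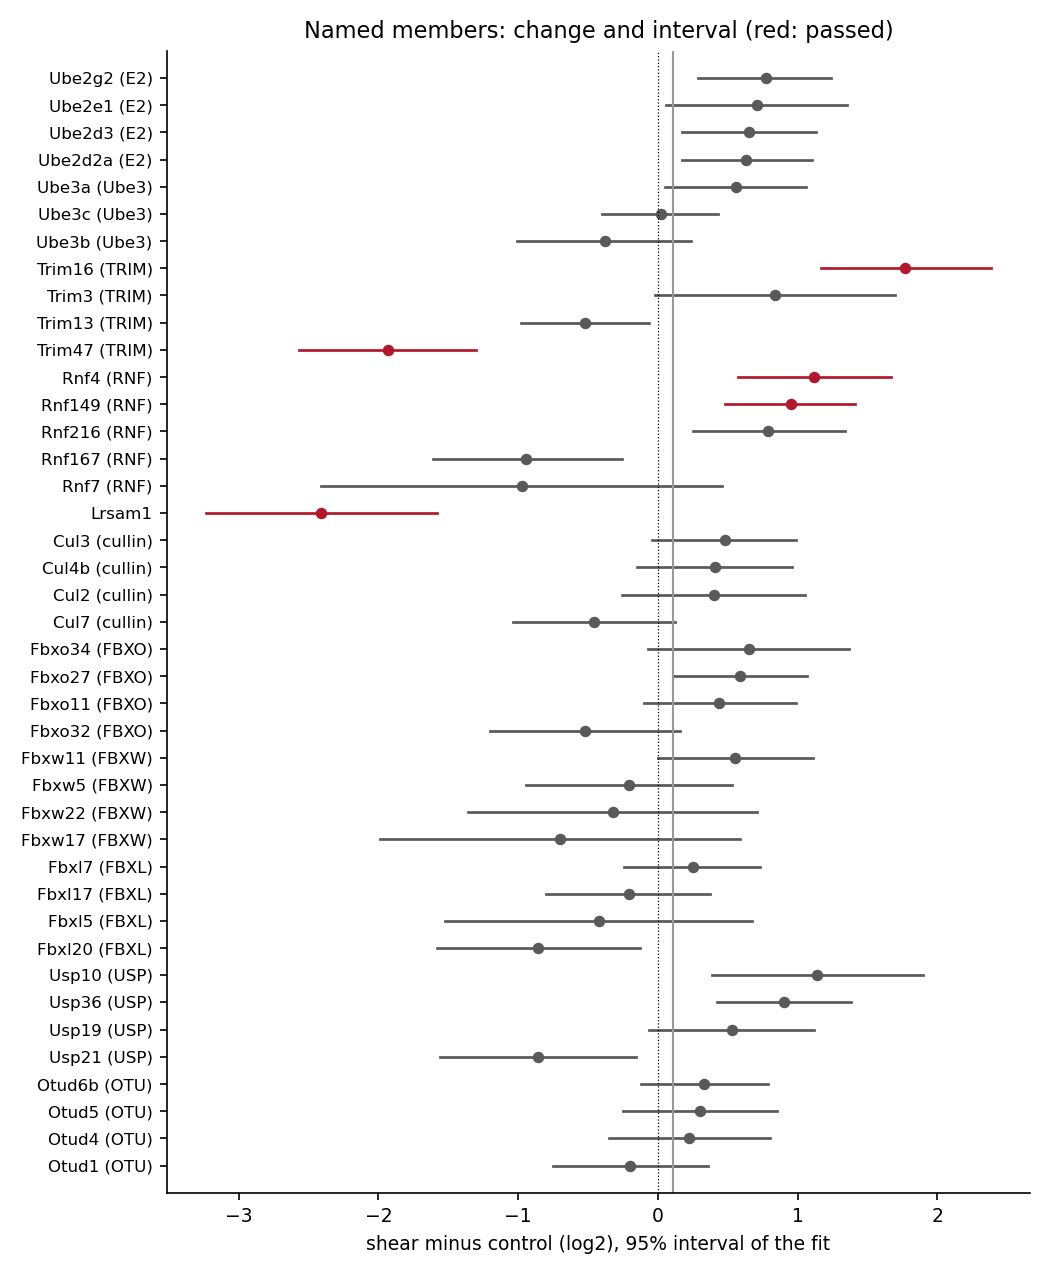
Change (log2, shear minus control) with its 95% confidence interval for each member gene named by the rule, by class; red marks genes that passed the test and the grey line is the median of all features, 0.11. The intervals of the 5 called genes exclude 0, and so do those of several genes that did not pass once adjusted over all 15601 features, such as Usp36 (0.42 to 1.38) and Ube2g2 (0.29 to 1.24).

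Probes of a gene were compared where at least 2 had been measured, which was so for 104 member genes. Of their 171 other probes, 115 had the sign of the tested probe, or 67.3%, against 65.9% of the 6280 other probes of all named genes. With every probe as a feature, 7 of 360 member probes passed: both of Lrsam1, both of Rnf149, and those of Rnf4, Trim16 and Trim47 used above. That is 4 higher and 3 lower probes, on a background of 1.42% of all probes in the higher and 0.201% in the lower direction. Lrsam1 is in the rule by name, so these counts cannot show an excess either.

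**Figure D4:**
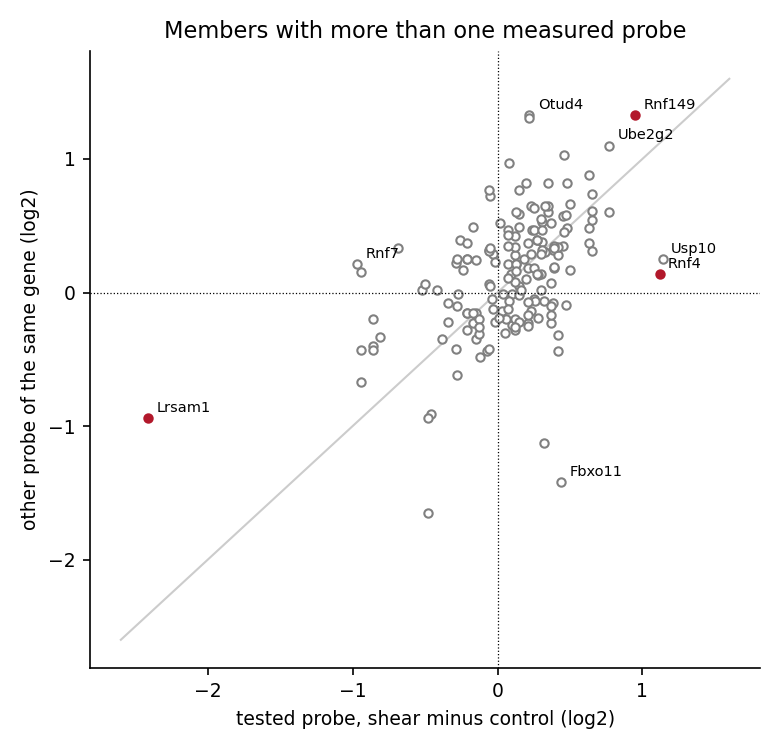
Change by the tested probe of each member gene (horizontal axis) against the change by each of its other probes (vertical axis), both as log2 of shear minus control, with a line of equality; red marks genes that passed the test. Of 171 points 115 lie in the quadrants of matching sign, among them Lrsam1 and Rnf149, and the 2 other probes of Otud4 lie at 1.33 and 1.31.

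The filter left out 15 member genes. Trim71, Rnf11, Rnf227, Fbxo16, Fbxo17, Fbxo25, Fbxw24 and Usp43 had no value in any sample. Fbxo2, a receptor for glycoproteins studied mainly in neurons, was measured in all 6 control samples, at -1.71 to 0.37, and in 2 of the shear samples, at 0.58 and 0.62, both on 1 array. Fbxo31 and Otub2 had a value in 2 shear samples and in no control sample, Fbxl13 in 5 shear and 3 control samples and Rnf126 in 3 shear and 2 control samples. Fbxl22 had a value in no shear sample and 2 control samples, and Fbxo43 in no shear sample and 1 control sample. No member probe was measured in all 6 samples of either group and in at most 1 of the other, against 0.237% of all probes for shear and 0.0348% for control.

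Other genes of the pathway were followed from a list of 124, of which 88 were on the array and 85 were tested. None of the 85 passed the test in limma, with 9 higher and 5 lower at an unadjusted p under 0.05 (16.5%, against 13.8% of all features), and the median change was 0.19, against 0.11 for all features. Smurf1, the HECT ligase of Smad proteins and Runx2, had a change of 1.04 (adjusted p = 0.0805, limma), with the groups apart. Over the 30 alternative settings its change ran from 0.64 to 1.13, with an adjusted p of up to 0.698 (limma). It passed in 3 of them. Cops8, a subunit of the COP9 signalosome that removes Nedd8 from cullins, had 1.15 (adjusted p = 0.0873, limma), and the Vcp cofactor Nploc4 had 0.70 (adjusted p = 0.131, limma). Arih2, a RING-between-RING ligase that works with Cul5, had 0.77, and the deubiquitinase Josd1 0.82. Genes of this list with more than 1 probe are given by 1 probe only. Smurf1, Cops8 and Josd1 have 2 probes and Nploc4 and Arih2 have 4, and their other probes are not compared here. Nedd8, the modifier that activates cullins, had the lowest change, -2.06 (adjusted p = 0.213, limma). Its shear values differed between arrays, at 2.50 and 2.27, -1.79 and -2.29, and -0.74 and -0.91, against 1.48 to 2.63 in control samples. Of the E1 genes tested, Nae1, a subunit of the Nedd8 E1, had 0.53 (adjusted p = 0.333, limma), with all shear samples above all control samples, and its partner Uba3 had 0.40. Uba6 had 0.01, Sae1, of the SUMO E1, -0.14 and Uba7, of the Isg15 E1, -0.17.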

How the data were processed

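Total RNA of 12 samples (6 shear, 6 control) was measured on spotted 2-colour arrays. The deposited table holds, per sample and feature, the authors' log2 values of a net fluorescence relative to the median of its block of 598 features; this was checked on the values, where all 576 combinations of block and sample gave whole-number fluorescence within 0.002. For the scanner, background method and spot filter: not given in the sources used here. Gene symbols come from the platform annotation, and all 204 member symbols stayed unchanged in a comparison through Entrez IDs with RefSeq GRCm38.p6. Over the array, 18267 of 18511 probes with a single symbol had an Entrez match. The unchanged names therefore do not show that every member was matched. Median net fluorescence per sample was 243 to 868, and the number of arrays limits the precision.

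Each sample was centred on its median. For each gene 1 probe was used (values in most samples, then highest mean), with at least 4 of 6 values in each group. limma 3.58.1 in R 4.3.3 fitted group and dye, with array as a random block (correlation 0.7365), and Benjamini-Hochberg adjustment ran over all 15601 features at 0.05. Within a group, an array was assumed to carry replicates 1 and 2, another 3 and 4, another 5 and 6, which the design text and the dyes imply but do not state. Arrays and groups cannot be told apart, and the residual degrees of freedom count samples, so adjusted p-values can be too small; averaging each array is the stricter alternative. In simulated data (15601 features), recovery was 18% among 100 given a log2 change of 1 and 80% among 100 given a change of 2, with 6 false among 104 calls. The simulated noise was Gaussian and had the fitted array correlation of 0.7365 for every feature. Its false calls therefore do not cover array correlations that differ between features or departures from that model.

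Members and gene lists were chosen with earlier results of these data known. Named are all members that passed, up to 4 per class by smallest p, the 6 highest and 6 lowest changes, Lrsam1 and Trim47, members seen in only 1 group or with a second probe that passed, and up to 6 other pathway genes by smallest p; further genes named for their role, a probe or a missing value were chosen after their values were seen. Alternatives were other normalizations, filters, probe rules, models and samples left out.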

Additional observations from a re-analysis of the deposited data

Results flagged for a closer look

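Over the named genes, 94 groups of 4 to 6 measured samples were examined for a sample far from the others by Dixon's ratio, which chance exceeds in about 1 in 20 groups, and 3 stood apart. Usp21 in the shear group had replicate 2 at -1.23, with the next shear sample at -0.37 (ratio 0.794). Fbxl17 in the control group had replicate 4 at 0.27, with the next control sample at 0.94 (ratio 0.674). Nploc4 in the control group had replicate 1 at 1.19, with the next control sample at 0.96 (ratio 0.680). None of these genes passed the test.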

How the results depend on the processing

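Over 47 named genes and 30 alternatives, 1396 values were computed: 1310 kept their direction and side of the threshold, 47 lost the call, 24 gained it and 15 changed sign. Of member genes, 5 passed. The number was 3 after quantile normalization, cyclic loess or centring on features measured in all 12 samples, 19 with no array block, 1 with each array averaged, 3 or 4 without a single replicate, and by array left out 2 (shear 3 and 4), 3 (shear 1 and 2, shear 5 and 6, control 5 and 6) or 4 (control 1 and 2, control 3 and 4). Lrsam1, Trim16 and Trim47 were the 3 wherever 3 passed.

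Of all features 232 passed, and the number was 133 after quantile normalization, 354 with every probe, 1716 with no array block, 72 with each array averaged and 366 with no dye term. Leaving out a single replicate gave 104 to 244, and leaving out an array gave 155 (shear 1 and 2), 38 (shear 3 and 4), 65 (shear 5 and 6), 137 (control 1 and 2), 148 (control 3 and 4) and 83 (control 5 and 6). The higher share of calls was 86.2%, against 69.0% after cyclic loess and 68.6% after centring on complete features, which moved the median of all features to -0.01 and -0.02 from 0.11.

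Same-numbered shear and control samples had correlations of -0.142 to 0.07 once group and dye means were removed. They share a dye, so removing its mean lowers these values, and the check cannot decide whether the numbers pair samples. The fit with the replicate number as a block (replicate block) called 100 features and 3 members. Counting an array only where both its samples had a value, 1 member probe, of Rnf225, was measured on 3 shear arrays and 0 control arrays, though it had a value in 2 control samples on different arrays; counted by sample there was none.

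Signs turned for Fbxl5 (0.15 with probes averaged, 0.16 without shear replicates 1 and 2), Fbxo11 (-0.06 with probes averaged), Fbxw22 (0.04 with the replicate block), Fbxw5 (0.23 without shear replicates 3 and 4), Rnf7 (0.08 without control replicates 1 and 2) and Ube3b (0.00 without shear replicates 5 and 6). Ube3c, at 0.02, gave -0.03 after quantile normalization, -0.13 after cyclic loess and -0.12 after centring on complete features. It gave -0.06 without shear replicates 3 and 4 and -0.02 without control replicates 3 and 4. Its sign also turned without shear replicate 1, shear replicate 3 or control replicate 1 alone. Over the 30 alternatives Ube3c ran from -0.13 to 0.1. The cause was not tested.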

Other observations

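Values that followed an array or a single sample, chosen after they were seen, were found in further genes of the pathway. Vcp, the segregase that extracts ubiquitinated proteins, was at 3.54 to 4.12 in the 6 shear samples and at 1.42 and 1.53 in control replicates 1 and 2, against 3.61 to 3.83 in the other control samples. Fbxl19 was at 0.35 to 1.66 in 5 shear samples and at -3.39 in shear replicate 6, against 0.34 to 1.85 in control samples. A Ube2n probe other than the tested one gave 1.45 and 1.94 in shear replicates 3 and 4 and -1.94 and -2.17 in shear replicates 5 and 6. It had no value in shear replicates 1 and 2, and its control values were 1.12 to 2.0. Its change was -1.65, against -0.48 by the tested Ube2n probe and -0.94 by the remaining one. Mdm2, the ligase of p53, was at 1.80 to 3.56 in shear samples and at 0.92 to 2.25 in control samples. Its relative Mdm4 had a change of -1.17 with the groups apart, and neither gene passed the test. Both genes have 2 probes, of which 1 is given here.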
